A study of Homo sapiens with 2 samples.

Results

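Genes that are best known from the liver were followed on 2 microarrays of RNA precipitated with an antibody against Argonaute2 (Ago2), the protein through which microRNAs act on their target mRNAs. The set comprised 39 genes: the fibrinogen chains, other plasma proteins, liver enzymes, transcription factors of the HNF and FOXA families, and 2 further genes, A1CF and TM4SF4. They were chosen by name, with results of these arrays already known, so what follows describes them and does not test them. Probe sets with a single gene symbol measured 38 of the 39 genes, out of 18417 named genes. HNF4A had no such probe set, so it has no expression value here and appears only in the promoter search.

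Both arrays came from A549, an established cell line grown from a human lung adenocarcinoma. The empty-vector array measured Ago2-precipitated RNA from cells transfected with a vector without insert. The miR-130b array measured Ago2-precipitated RNA from cells that overexpressed the microRNA miR-130b. Each group had 1 array, so no value has a replicate error, a standard error or a p-value, and each difference describes these 2 arrays. Whether the overexpression was transient or stable, and how many clones it involved, is not given in the sources used here.

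Hepatocytes make most plasma proteins, and they do so through a network of transcription factors in which HNF1, HNF4, FOXA and C/EBP proteins bind one another's genes and the promoters of secreted proteins and metabolic enzymes. During the acute-phase response, interleukin-6 acting through STAT3 raises fibrinogen and other plasma proteins above their resting level. Lung epithelial cells, and A549 cells among them, can also make fibrinogen and use FOXA factors. Ago2 holds mRNAs mainly through the seed of the microRNA, bases 2 to 8, shown in capitals. The mature products of the overexpressed microRNA's gene, on the plus strand of chromosome 22 (RefSeq, GRCh38.p14, chr22:21653354-21653375 for the 3p arm and chr22:21653316-21653336 for the 5p arm), are printed because they are what differed by design.
hsa-miR-130b-3p: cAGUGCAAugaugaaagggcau
hsa-miR-130b-5p: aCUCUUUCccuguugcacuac

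Upstream stretches of 6 genes are shown because the genes differ in how they behaved on the arrays while several share a motif near the start site. Each is the 170 bases before the annotated start, read in the gene's own direction, from RefSeq on GRCh38.p14. FGA (chr4:154590743-154590912, minus strand), FGB (chr4:154562810-154562979, plus strand) and FGG (chr4:154612657-154612826, minus strand) encode the fibrinogen chains and lie next to each other. APOH is at chr17:66229416-66229585 on the minus strand, ALB at chr4:73404117-73404286 on the plus strand and A1CF at chr10:50885628-50885797 on the minus strand. Capitals mark the HNF1 core motif GTTAAT, which reads ATTAAC when it lies on the other strand. They also mark CTGGGAA, taken here as the core of interleukin-6 response elements.
FGA: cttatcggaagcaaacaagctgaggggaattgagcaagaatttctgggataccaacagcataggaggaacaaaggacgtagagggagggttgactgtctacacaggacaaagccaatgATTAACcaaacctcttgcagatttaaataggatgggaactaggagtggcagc
FGB: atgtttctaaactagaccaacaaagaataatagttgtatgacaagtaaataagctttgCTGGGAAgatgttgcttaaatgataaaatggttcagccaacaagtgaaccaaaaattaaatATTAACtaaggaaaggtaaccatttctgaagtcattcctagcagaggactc
FGG: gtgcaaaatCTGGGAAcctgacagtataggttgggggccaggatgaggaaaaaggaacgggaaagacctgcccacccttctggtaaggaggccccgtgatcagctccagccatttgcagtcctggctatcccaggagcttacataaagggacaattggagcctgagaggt
APOH: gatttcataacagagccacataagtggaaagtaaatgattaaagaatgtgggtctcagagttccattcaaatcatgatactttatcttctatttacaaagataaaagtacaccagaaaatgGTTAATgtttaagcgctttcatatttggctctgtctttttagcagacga
ALB: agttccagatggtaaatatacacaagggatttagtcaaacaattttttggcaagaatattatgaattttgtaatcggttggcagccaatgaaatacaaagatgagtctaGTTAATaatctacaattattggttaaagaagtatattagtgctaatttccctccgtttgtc
A1CF: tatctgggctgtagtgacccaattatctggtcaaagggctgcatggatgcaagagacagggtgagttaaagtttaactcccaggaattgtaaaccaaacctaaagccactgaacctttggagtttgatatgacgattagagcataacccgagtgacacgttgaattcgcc

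Values are log2 expression values, and a difference is the value with miR-130b minus that with the empty vector, so a negative difference means less in the precipitate with miR-130b. Both arrays had a median of 7.77 over 33297 probe sets. The overexpressed microRNA's gene separated the arrays as labelled, from 6.66 (empty vector) to 12.64 (miR-130b) for MIR130B, and AGO2, which encodes Ago2, differed by 0.25. The epithelial keratin genes KRT7, KRT8 and KRT18 lay between 12.92 and 13.48 on both arrays, whereas EPCAM was at 7.0 and 6.80. KRT19 was higher by 0.37, and CDH1, E-cadherin, stood at 12.61 and 11.49, 2.17-fold lower with miR-130b. Of 7 measured markers of alveolar type II cells, ABCA3 alone passed the filter described next, at 9.93 and 8.89 (2.05-fold lower). LAMP3, below it, stood at 8.35 and 6.81 (2.92-fold lower). Added up on the linear scale, the epithelial markers came to 36969 on the empty-vector array and 32719 on the miR-130b array, and the alveolar markers to 2060 and 1357. The fall of the alveolar sum lay in ABCA3 and LAMP3, since the other measured alveolar markers differed by -0.074 (NKX2-1) to 0.18 (SFTPB). CDH1, ABCA3 and LAMP3 moved the same way as the lower liver-type genes, and their part in the result was not tested. Of 12 markers that define hepatocytes, 11 were below the filter, among them ALB, CYP3A4 and TAT, and 8 were at or under the 95th percentile of olfactory receptor genes on both arrays. TDO2, tryptophan dioxygenase, was the 1 above the filter, at 8.80 and 9.35. The 12 hepatocyte markers summed to 1419 and 1688, and to 974 and 1037 without TDO2, so most of that rise was its own. The sums were 612 and 753 for fibroblast markers, 788 and 1047 for leukocyte markers and 767 and 902 for endothelial markers. Of the leukocyte markers CD14 alone was above the filter, at 8.89 and 9.53. PTPRC and CD3E were at or under the 95th percentile of olfactory receptor genes on both arrays, and LST1 differed by -0.042. All 5 endothelial markers were higher, as were all 5 fibroblast, 10 of 12 hepatocyte and 3 of 4 measured leukocyte markers. Of all 18417 named genes 10785 were higher, so nothing is read from these counts. KDR, below the filter at 6.68 and 7.40, had the largest difference among the endothelial markers.

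A gene was kept if its mean over both arrays reached the median of all named genes (8.64) or if either array exceeded 9, which left 9248 genes, 39 of them through the second condition. Among the liver-type genes 14 were kept, 24 were below the filter and 1 was not measured. Just inside it were AADAC, with a mean of 8.69, and APOE, with a mean of 8.76. Just outside it were ITIH2, with a mean of 8.48 and 8.96 on its higher array, and APOA1, with a mean of 8.42. FGB passed only through the array on which it was high, so it could not be kept without differing. As a guide to background, 361 olfactory receptor genes, which serve smell and are mostly silent in other tissues, had a 95th percentile of 7.16 on the empty-vector array and 7.23 on the miR-130b array.

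Of the 14 kept genes, 6 were at least 2-fold lower with miR-130b (A1CF, FGA, CES1, FGB, FGL1 and RBP4), and none was at least 2-fold higher. Among all kept genes 1.79% were at least 2-fold lower and 1.48% at least 2-fold higher. The same contrast served to choose the genes, so nothing is read from that gap. The kept genes had a median difference of -0.89 and ran from -3.28 to 0.67, with 11 lower and 3 higher, beside a median of 0.0100 and 48.4% lower over all kept genes. With a filter on the mean alone, 13 were kept and 5 were at least 2-fold lower, beside 1.60% of 9209 genes. Over all 38 measured genes the median difference was -0.042. Lower values were thus seen in part of the set. For 13 genes, at or under the 95th percentile of olfactory receptor genes on both arrays, a lower value could hardly show. The roles are taken in turn below.

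**Figure D1:**
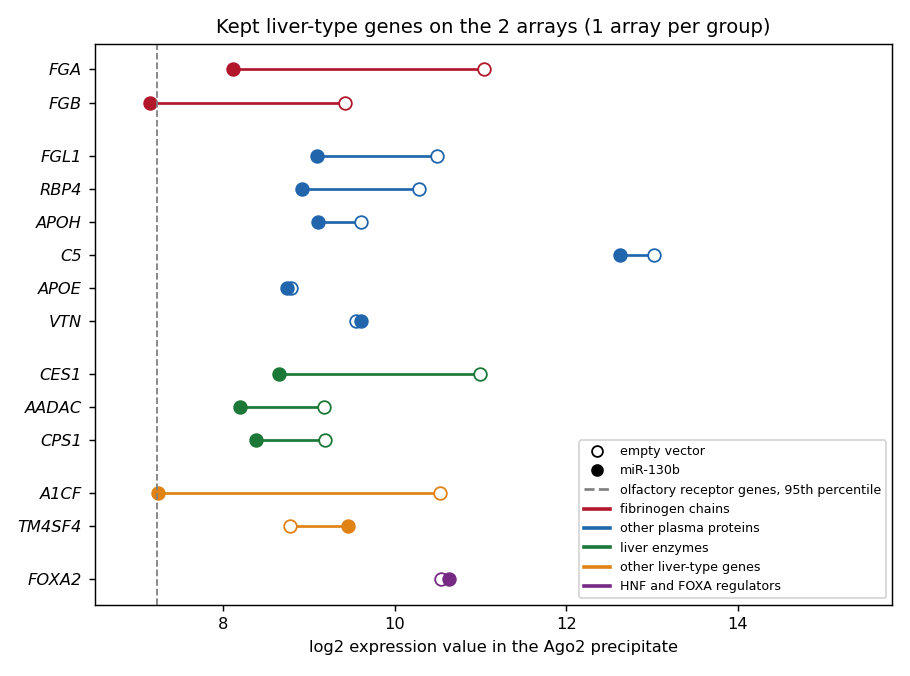
Log2 expression values of the 14 kept liver-type genes on the empty-vector array (open circles) and the miR-130b array (filled circles), 1 array per group, coloured by role; the dashed line is the 95th percentile of olfactory receptor genes on the miR-130b array. FGA, FGB, CES1 and A1CF move farthest to the left, FGB and A1CF end close to the dashed line, and VTN, APOE and FOXA2 hardly move.

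Of the 3 fibrinogen chain genes, FGA and FGB were lower with miR-130b and FGG was near background. Fibrinogen, the soluble precursor of the fibrin clot, is assembled from an alpha, a beta and a gamma chain, each from its own gene. FGA, the alpha chain gene, stood at 11.04 on the empty-vector array and 8.11 on the miR-130b array. That difference of -2.93, a 7.62-fold lower value, was the 6th lowest of 9248 kept genes.

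FGB, the beta chain gene, stood at 9.42 and 7.15, a difference of -2.27 (4.82-fold lower) and the 15th lowest. Its value with miR-130b was under the 95th percentile of olfactory receptor genes on that array, where array background adds to the signal, so its fold may be understated. FGG, the gamma chain gene, was measured at 5.41 and 4.64, lower than the median olfactory receptor gene of each array (5.77 and 5.86), and no fold is given for it. The alpha and beta chain genes were thus both lower with miR-130b, and the gamma chain could not be judged. Each of these genes had 1 probe set, so there was no second probe set to set beside it.

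FGL1, a secreted fibrinogen-like protein made by hepatocytes, was also lower. Its values were 10.49 and 9.09, empty vector first, 2.64-fold lower and the 68th lowest of the kept genes.

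The other plasma proteins split into a few abundant genes and many near background. Of 26 genes in this role, FGL1 included, 6 were kept, and their differences ran from -1.40 to 0.056 with a median of -0.45. Among proteins that carry lipids or small molecules, RBP4, the plasma carrier of retinol, stood at 10.28 and 8.91, a difference of -1.36 (2.57-fold lower). APOH, beta-2-glycoprotein I, which binds phospholipids, stood at 9.61 and 9.10, a difference of -0.51. APOE, the apolipoprotein recognised by LDL-family receptors, stood at 8.79 and 8.74, a difference of -0.048. These 3 carriers therefore ranged from a clear gap between the arrays to almost none.

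Among coagulation and complement proteins, neither kept member reached 2-fold. C5, the complement component from which the membrane attack complex starts, was at 13.03 and 12.63, a difference of -0.40. VTN, vitronectin, an adhesive plasma protein that stabilises the inhibitor PAI-1, was at 9.55 and 9.61, a difference of 0.056. The difference of VTN was smaller than the SD of 0.17 between probe sets of the same gene (357 genes with several), and that of C5 was larger than double that SD (0.34). The SD reflects probes on the same arrays, not repeated cultures or precipitates. Over all kept genes, 71.9% differed by less than double the SD (0.34).

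The remaining 20 plasma proteins were below the filter. ITIH2, a heavy chain that is linked to hyaluronan, came nearest to it and was lower, at 8.96 and 8.0, a difference of -0.96. The others in that group lay between differences of -0.41 (F5, the coagulation cofactor V) and 0.37 (ORM1, orosomucoid). Of all 24 genes below the filter, FGG and the regulators included, 10 were lower and 14 higher, 18 differed by less than 2 probe-set SDs, and none reached 2-fold. Of all 18417 named genes, kept ones included, 7480 were lower and 10785 higher. At least 2-fold lower were 252 of them and at least 2-fold higher 196, so nothing is read from the counts below the filter.

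Several of the most familiar liver products were among them. At or under the 95th percentile of olfactory receptor genes on both arrays were ALB (albumin), AFP (alpha-fetoprotein), HP (haptoglobin), AHSG (fetuin-A), KNG1 (kininogen), APOB, TTR (transthyretin), SERPINA1 (alpha-1-antitrypsin), SERPIND1 (heparin cofactor II), C4BPB, ORM1, F5 and FGG, 13 genes in all. ALB, for example, was at 5.60 and 5.61. The genes AMBP, APOA1, SERPINA3, ITIH4, F2, F10 and TF were below the filter and above that level on at least 1 array. TF, transferrin, was the lowest of these by difference, at 7.33 and 6.93, and F2, prothrombin, the highest, at 7.23 and 7.52. For the 13 genes within the olfactory receptor range, little room was left for a lower value to show.

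**Figure D2:**
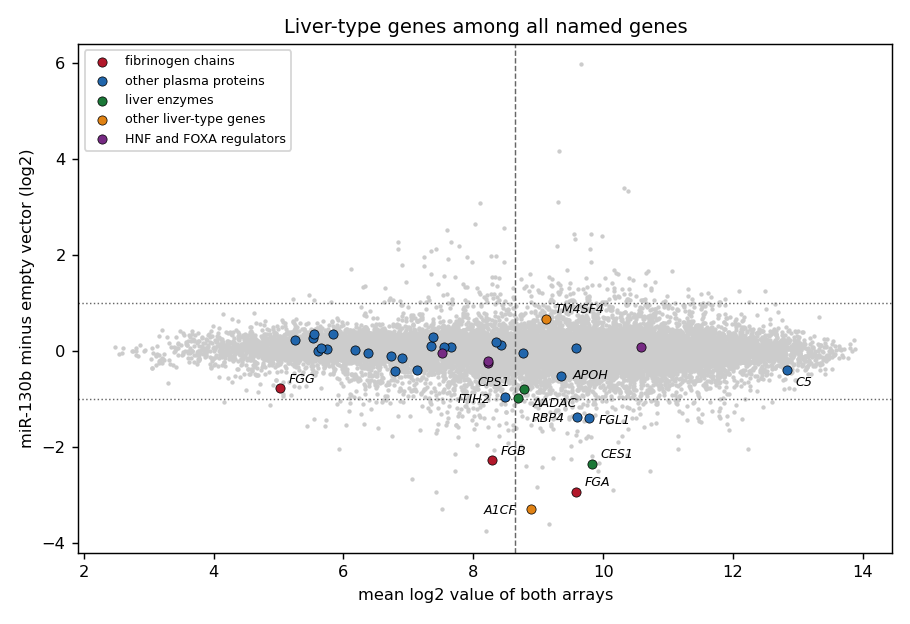
Difference between the arrays (miR-130b minus empty vector, log2) against the mean log2 value of both arrays for 18417 named genes (grey), with the 38 measured liver-type genes coloured by role; dotted lines mark 2-fold and the dashed line the filter on the mean at 8.64. The genes to the left of the dashed line lie near 0 apart from FGB, ITIH2 and FGG, and FGA, CES1 and A1CF lie at the lower edge of the cloud.

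All 3 liver enzymes were kept, and all were lower with miR-130b. CES1, a carboxylesterase that hydrolyses drugs and lipid esters, stood at 10.99 and 8.65. This 5.08-fold lower value, a difference of -2.34, was the 13th lowest of the kept genes. AADAC, arylacetamide deacetylase, another esterase of the endoplasmic reticulum, was at 9.17 and 8.20, a difference of -0.97. CPS1, the mitochondrial enzyme that feeds ammonia into the urea cycle, was at 9.18 and 8.39, a difference of -0.80. AADAC and CPS1 stayed under 2-fold and lay at the 1.87th and 3.19th percentile of the kept genes.

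A1CF, the RNA-binding partner of the APOBEC1 deaminase that edits APOB mRNA, had the largest gap among the liver-type genes. The values were 10.53 (empty vector) and 7.24 (miR-130b), a difference of -3.28 (9.73-fold lower) and the 3rd lowest of 9248. Its value with miR-130b was close to the 95th percentile of olfactory receptor genes on that array, so its fold too may be understated. APOB, the transcript A1CF acts on in liver and intestine, was at 6.39 and 6.36, within the olfactory receptor range.

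TM4SF4, a membrane protein of the transmembrane 4 superfamily found in liver and intestine, went the other way. It was at 8.78 on the empty-vector array and 9.45 on the other, higher by 0.67, at the 95.9th percentile of the kept genes. At a threshold of 1.5-fold, it was the 1 kept gene counted as higher, and 8 were counted as lower, beside 5.22% and 6.07% of all kept genes.

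The HNF and FOXA regulators differed little. FOXA2, a pioneer factor of endoderm, liver and lung, was the 1 kept regulator, at 10.54 and 10.63, a difference of 0.091. FOXA1, its relative in lung and breast epithelium, was at 8.33 and 8.12, and FOXA3, the most liver-restricted member, at 7.53 and 7.49. HNF4G, a nuclear receptor related to HNF4A, was at 8.34 and 8.10. The 4 measured regulators thus ranged from -0.24 to 0.091, within 2 probe-set SDs, where 71.9% of all kept genes also lay. On the same arrays 6 other liver-type genes differed by more than 1, and the genes were chosen with results known. This sets values side by side and is no test, and protein levels were not measured.

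Sequence itself was not used to choose the genes. They were chosen by name as liver-type genes, whose promoters HNF1 proteins are known to bind. More HNF1 motifs among them would follow from that choice, so nothing is read from the shares. RefSeq promoter windows of 300 bases (250 before the start site and 50 after) were on hand for 30 of the 39 genes, in 43 windows, since some genes have several start sites. CES1 and FGL1 had none. The HNF1 core motif GTTAAT, searched on both strands, was in 11 of the 43 windows (25.6%) and in 6.91% of 34796 distinct windows of all genes. The genes that held it were FGA, FGB, SERPINA1, APOH, ALB, AFP, F2, C5, HNF4A and TM4SF4.

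The windows of liver-type genes were poorer in G and C than the rest, with a median of 52.0% against 58.7%, and short motifs rich in A and T are more common in such windows. Between 30% and 50% G and C, 8 of 21 windows of liver-type genes held the HNF1 core, beside 15.6% of 10598 windows of all genes. In 9 of the 43 windows the match began within the last 100 bases before the start site, beside 2.29% of all windows, a distance chosen after the matches were seen. The match began 52 bases before the start in FGA, 51 in FGB at its first listed start site and 49 in APOH, as the printed stretches show. Windows of different start sites of FGB overlap and hold the same match.

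The motif occurred in genes that behaved differently on the arrays. It was in 2 of the 4 genes with a window that were kept and at least 2-fold lower (FGA and FGB, but not A1CF or RBP4), and in 5 of the 11 kept genes with a window. APOH and C5 held it and differed by -0.51 and -0.40, TM4SF4 held it and was higher, and ALB, AFP, SERPINA1 and F2 held it and were below the filter. A match is a stretch of letters and not a bound site.

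The other motifs were searched in the same way, on both strands. CTGGGAA, taken here as the core of interleukin-6 response elements, was in 11 of 43 windows, beside 10.8% of all windows. FGB and FGG held these letters upstream of the start, and FGA did not. The printed stretch of FGA does hold ctgggat, which differs from them in the last base, and shorter forms were not searched. The search therefore does not say whether FGA has such an element. The nuclear receptor core AGGTCA was in 13 windows, beside 13.8% of all. The FOXA motif TGTTTAC was in 3 windows (of C4BPB and KNG1), beside 3.42% of all, and the HNF4 motif CAAAGTCCA in 2 (AHSG and F10), beside 0.385%. The C/EBP palindrome TTGCGCAA was in none, beside 0.152% of all windows. Matches of different motifs did not have to lie apart, and no match says only that these letters are not in the window.

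**Figure D3:**
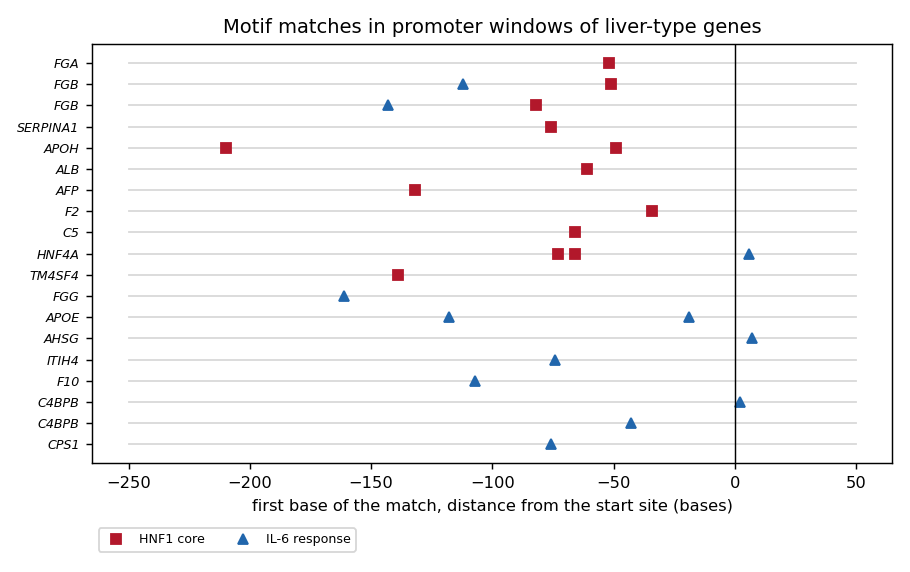
Distance from the start site, in bases, of the first base of each match to the HNF1 core (squares) and the interleukin-6 response core (triangles) in the promoter windows of liver-type genes that hold either, 1 line per window; matches on either strand are drawn. Most HNF1 matches lie within 100 bases before the start site, with FGA at 52, FGB at 51 and APOH at 49 bases upstream.

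The fibrinogen genes are neighbours on chromosome 4, which allowed position to be looked at as well. For each kept gene, the nearest 2 protein-coding genes with a value on each side were taken in the RefSeq gene order. PLRG1, a splicing factor gene next to FGB, was at 11.65 and 11.48, a difference of -0.17. LRAT, beyond FGG, was at 6.15 and 6.27, within the olfactory receptor range. The lower values thus covered FGA and FGB and were not shared by the kept gene beside them.

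The 14 kept genes together had 51 neighbours that are not liver-type genes of this set, of which 25 were kept. None of the 25 was at least 2-fold lower or higher, their differences ran from -0.25 to 0.85, and their median was 0.18. At a background of 1.79% lower and 1.48% higher, few would be counted among so many genes in any case. SGMS1 and CSTF2T, on either side of A1CF, differed by -0.22 and 0.25. CES5A, a carboxylesterase gene beside CES1, was below the filter at 6.60 and 6.65. TM4SF1 and TM4SF18, relatives of TM4SF4 beside it, were higher by 0.51 and 0.38, and WWTR1 on its other side by 0.35, so there the kept neighbours except COMMD2 (-0.22) went the same way as TM4SF4. Below the filter, TRAF1 beside C5 differed by -0.88 and AXIN2 near APOH by 1.03.

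**Figure D4:**
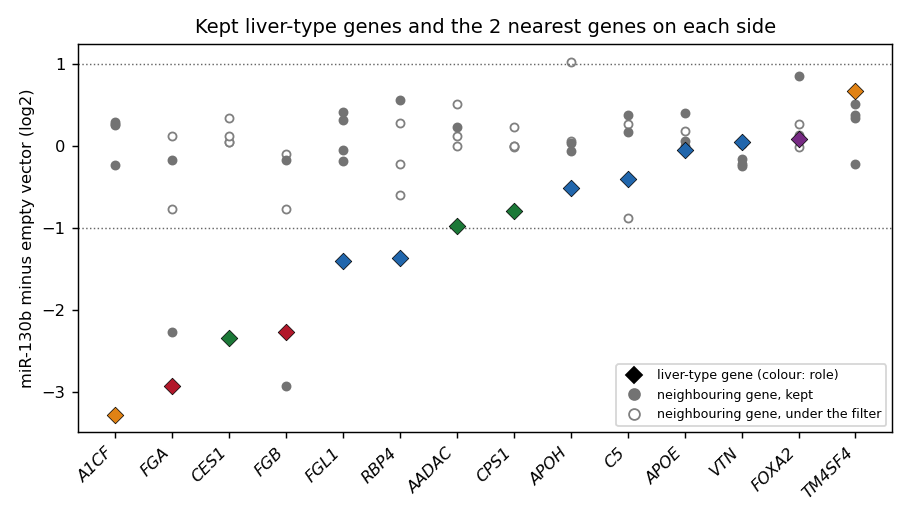
Difference between the arrays (miR-130b minus empty vector, log2) for each of the 14 kept liver-type genes (diamonds, coloured by role) and for the nearest 2 protein-coding genes on each side (circles, filled if kept); dotted lines mark 2-fold. FGA and FGB appear as each other's neighbours, and the other filled circles lie between -0.25 and 0.85.

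Further genes of the same liver programme were listed by role, from general knowledge and with some results of these arrays known. They number 139, of which 122 were measured and 43 kept. Of the 9 kept among 60 further plasma proteins, 4 were at least 2-fold lower and none higher, with a median of -0.82, beside 1.79% lower and 1.48% higher among all kept genes. Since the list was written with results known, nothing is read from that gap. LCN2, an iron-binding acute-phase lipocalin, stood at 11.60 and 8.71, a difference of -2.89. IGFBP1, a liver-secreted binding protein of insulin-like growth factors, stood at 12.21 and 10.75 (2.74-fold lower). CP, the copper-binding ferroxidase ceruloplasmin, stood at 12.16 and 10.77 (2.63-fold lower). F7, coagulation factor VII, stood at 9.03 and 7.93 (2.14-fold lower), and it passed only through the array on which it was high. Below the filter, SERPINF1, the angiogenesis inhibitor PEDF, was at 8.70 and 7.25, and AGT, angiotensinogen, at 8.59 and 7.40, each more than 2-fold lower.

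The complement genes among them differed less. CFB, factor B of the alternative pathway, was at 10.68 and 9.86, a difference of -0.82. C3, the central complement component, was at 13.10 and 12.97, and CFI, a protease that inactivates C3b, at 8.90 with miR-130b, a difference of -0.11. C4BPA, the alpha chain of the C4b-binding protein, was at 8.87 and 8.72, and PROS1, the anticoagulant protein S that binds it, at 11.10 and 11.11. Factor B thus differed more than C5, and C3 less.

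Of 36 further liver enzymes, 6 were kept, 1 of them at least 2-fold lower and none higher, with a median of -0.31, again beside 1.79% and 1.48% of all kept genes. That 1 was ASS1, argininosuccinate synthase, at 11.19 and 9.58 (3.06-fold lower). It follows CPS1 in the urea cycle. ASL, the next enzyme, was at 10.20 and 9.58, a difference of -0.62. CPS1 and ASL did not reach 2-fold. Of the other urea-cycle genes listed, OTC and ARG1 were within the olfactory receptor range and NAGS, which makes the activator of CPS1, was below the filter at 8.05 and 8.11.

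HGD, an enzyme of tyrosine breakdown, differed by -0.62 and TDO2, of tryptophan breakdown, by 0.55. BAAT, which conjugates bile acids, was at 10.13 and 10.17. CES2, the intestinal relative of CES1, was at 11.32 on both arrays. The gap at CES1 was thus not seen at CES2.

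Of 25 further liver transcription factors and coactivators, 14 were kept, with a median of 0.21. Of these, 2 were at least 2-fold lower and none higher, beside the same shares of all kept genes. PPARGC1A, a coactivator of HNF4A and other nuclear receptors, stood at 10.07 and 6.33, a difference of -3.74 and the lowest of all kept genes. It passed only through the array on which it was high. NR5A2, liver receptor homologue 1, stood at 12.50 and 11.09 (2.64-fold lower). Among the other kept nuclear receptors in the list, NR2F1 differed by 0.37, NR2F6 by 0.33, RXRA by 0.16 and ESRRA by -0.16. CEBPB, a mediator of the acute-phase response, differed by -0.38. ONECUT1 (HNF6) was at 9.09 and 9.08 and CEBPA at 8.80 and 8.79. The largest increases were those of SOX9, a progenitor and bile duct factor (0.61), CEBPD (0.47) and GATA6, a factor of endoderm and lung (0.45).

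Of 18 genes of interleukin-6 and glucocorticoid signalling, 14 were kept, with a median of 0.013. None reached 2-fold, beside 1.79% lower and 1.48% higher among all kept genes, so few would be counted among so few genes in any case. IL6, the cytokine itself, was at 11.55 and 10.70, a difference of -0.84. JAK2, a kinase of the receptor, differed by -0.50 and PER1, a clock gene that glucocorticoids induce, by -0.34. STAT3, which carries the signal to fibrinogen promoters, was at 13.04 and 13.32. TSC22D3 (GILZ), induced by glucocorticoids, differed by 0.76, the receptor gene IL1R1 by 0.69 and the feedback inhibitor SOCS3 by 0.48. The kept genes of this list were evenly divided, 7 lower and 7 higher, much as all kept genes were, with 48.4% lower.

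**Figure D5:**
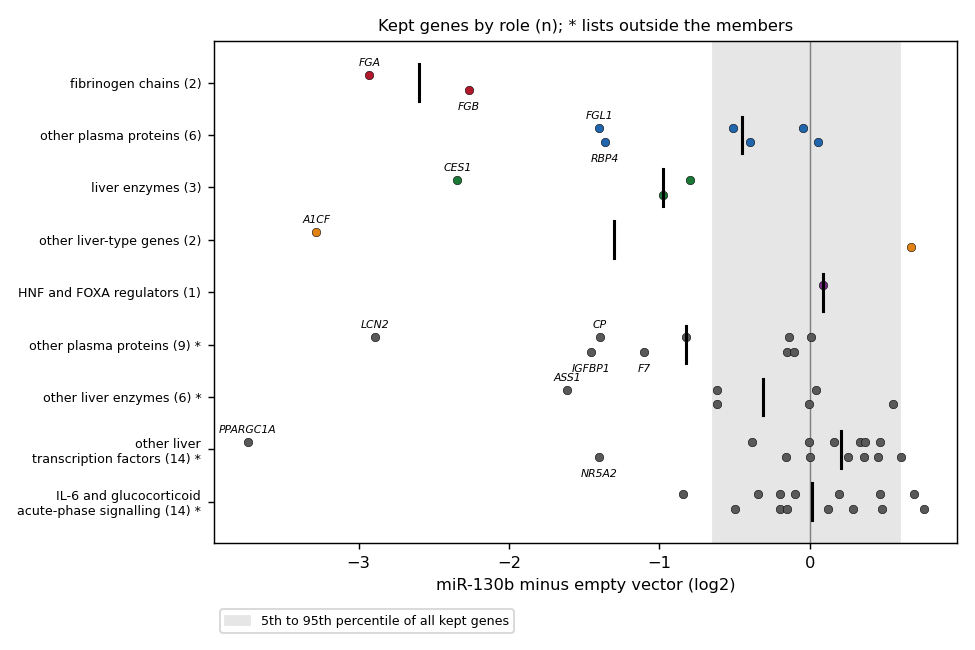
Difference between the arrays (miR-130b minus empty vector, log2) for the kept liver-type genes by role (coloured) and for the kept genes of 4 further lists (grey, marked with an asterisk), with the number of genes in brackets, the median of each as a black line and the 5th to 95th percentile of all kept genes shaded, from -0.64 to 0.60. Fibrinogen chains and liver enzymes lie to the left of the shaded band, and most transcription factors and signalling genes lie inside it, apart from PPARGC1A and NR5A2 among others.

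No array of RNA before precipitation was analysed here. A lower value in the precipitate therefore combines the amount of an mRNA with its share bound to Ago2, and fewer cells with a transcript cannot be told apart from less of it per cell. Under quantile normalization, cyclic loess and centring of the arrays, the same number of kept liver-type genes, 6, was at least 2-fold lower.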

How the data were processed

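The members and all gene lists were chosen with earlier results of these data known. The file held the authors' deposited log2 values for 33297 probe sets on 2 arrays of biotin-labelled whole-transcript cDNA, per the labels' protocols. That the scale is log2 was taken from the values (1.95 to 14.2). No source used here names the software or the normalization. The labels' extraction protocol describes tissue and a microRNA kit, so how the precipitated RNA was purified is uncertain.

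The supplied platform annotation gave 1 gene symbol for 19460 probe sets, several for 1754 (left out, none naming a member) and none for 12083. Symbols were updated through Entrez identifiers (19429 matched), and probe sets of a gene were averaged. With 1 array per group no test was run, and the number of arrays limits precision. Named were all members, MIR130B, AGO2, PPARGC1A and up to 3 kept genes each way from each further list. Other examples and neighbours were named after their values were seen. The fold count was tested on simulated data. Alternatives were other filters, centring, quantile normalization, cyclic loess, the brightest probe set, shared probe sets, platform symbols and a 1.5-fold threshold. Python 3.11.15, pandas 2.3.3, matplotlib 3.10.9, R 4.3.3 and limma 3.58.1 were used.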

Additional observations from a re-analysis of the deposited data

How the results depend on the processing

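Under centring, quantile normalization and cyclic loess, the differences of 64 named genes shifted by at most 0.061, and none crossed 2-fold. The brightest probe set gave another value for 2 of them, and the filters, shared probe sets and platform symbols cannot or did not alter a single gene's difference. What moved were summaries, with the genes a filter let in. With no filter the median was -0.042 over all 38 measured genes, -2.27 for the fibrinogen chains, 0.042 for the other plasma proteins and -0.12 for the regulators, and 252 genes of the series were at least 2-fold lower. Without the exception for genes above 9 on 1 array, FGA alone stood for the fibrinogen chains at -2.93. With a filter at the 75th percentile, C5 and FOXA2 were left, with a median of -0.15 and 0 at least 2-fold lower, among 60 lower and 40 higher genes in all. At 1.5-fold, 1 liver-type gene was higher, and 561 genes were lower and 483 higher. No paired analysis was possible because each group has 1 array. Signal near background limits FGG and 12 other liver-type genes on both arrays, and FGB and A1CF on the miR-130b array.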
